A study of Mus musculus with 20 samples.

Results

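The F-box, kelch and BTB genes described here belong by name to families with many subunits that choose the target of ubiquitin ligases. These genes need not all have that role. They were taken as every gene measured by a probe set with exactly 1 gene symbol that begins with Fbxo, Fbxl, Fbxw, Klhl, Klhdc, Kbtbd or Btbd and a number, leaving out Fbxw13, Fbxw21 and Fbxw22. The probe set with the highest mean over all arrays stood for a gene. This gave 84 genes, from 135 probe sets, of 9607 named genes on the array: 10 Fbxw, 12 Fbxl, 16 Fbxo, 26 Klhl, 7 Kbtbd, 6 Klhdc and 7 Btbd. One of them, Fbxl12os, is an antisense transcript that the letters of the rule also catch, and it was not tested.

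Total RNA of mouse oocytes, 1-cell embryos, 2-cell embryos, 8-cell embryos and blastocysts, 4 samples each, had been amplified by 2 rounds of in vitro transcription and hybridized to 20 Affymetrix MOE430B arrays. The labels give no strain, age, culture condition or number of pooled cells, and do not say how mature the oocytes were. They do not say that the 4 samples of a stage came from separate pools. The p-values set the difference of stage means against the spread of samples within a stage, and that spread may be technical variation alone. MOE430B is the second array of a pair, and other genes of these families have probe sets only on the first, so the absence of a gene here says nothing about its expression.

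An F-box protein binds Skp1 through its F-box and so joins a target to the cullin Cul1 in an SCF ligase. Fbxw proteins hold the target with WD40 repeats, Fbxl proteins with leucine-rich repeats, and Fbxo proteins with other domains. Proteins with a BTB domain and kelch repeats, which include the Klhl and Kbtbd families, do the same for Cul3, and some Klhdc proteins, which have kelch repeats and no BTB domain, do it for Cul2. In the early embryo stored maternal proteins and transcripts are removed while the embryonic genome is switched on, and these ligases are among the machinery of protein removal in all cells.

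All values are the authors' linear intensities, and all changes are differences of stage means of log2(intensity + 20), which understate the change of dim genes. The table has no detection calls, so values near its low end cannot be told from background. A value given as a mean carries ± 1 SD over the 4 samples of a stage (n = 4). Of the 84 genes, 68 passed the filter on dim probe sets (an intensity of 82.6, the median of the whole table, or more on 4 or more arrays) and were tested. A gene that passed only because it was bright at 1 stage had to differ between stages, so the counts below describe the tested genes alone. Each array had been scaled to 1 mean, so a change is a change in the share of the RNA measured. In such pools of whole cells, fewer cells of a type and less RNA per cell cannot be told apart.

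The stage labels were set beside listed markers, of which 6 of 14 oocyte genes and 3 of 9 trophectoderm genes were measured. The lists were chosen with earlier results of these data known, so they are no independent check of the labels. The summed intensity of the oocyte genes was 66635 to 82311 on the oocyte arrays and 73509 to 86195 on the 1-cell arrays. It therefore does not tell these stages apart. On the 2-cell arrays it was 25637 to 54035 and on the 8-cell arrays 4754 to 5841. The sum of the trophectoderm genes was 9998 to 14500 on the blastocyst arrays, mostly from Tmprss2 (9176 ± 2003), and at most 1435 at any other stage. From the 8-cell stage to the blastocyst Epcam rose as well (893 ± 57.5 to 2764 ± 571), but Dab2 did not (263 ± 24.9 to 269 ± 78.4). The blastocyst arrays again read 20964 to 25478 for the oocyte genes, of which Khdc3 made up 20822 ± 2274. For 18S ribosomal RNA the probe set of the middle part gave 32272 to 42929 on the 1-cell arrays and 398 to 3808 on the others, so the 1-cell arrays stand apart in this respect, and its part in any 1-cell result was not tested. On the 8-cell arrays the log2 ratio of the 3′ to the 5′ probe set of Gapdh was 0.68 to 1.57, against 1.75 to 2.88 elsewhere, and the bacterial controls averaged 12.30 to 12.9 log2 units, against 10.6 to 12.25. The same ratio of beta-actin was 0.68 to 1.25 on the blastocyst arrays, against 1.43 to 2.64 elsewhere and 1.86 to 2.08 at the 8-cell stage. None of these was tested for its part in the 8-cell or blastocyst results. The 4 measured sperm genes of 9 listed summed to 147 to 929 over all arrays.

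Most of the tested genes changed in the course of development, and falls outnumbered rises. By limma's moderated F test 51 of 68 changed among the 5 stages, or 75%, beside 53.0% of all 15234 tested probe sets and 59.5% of 7475 named genes each read from its brightest probe set. All 6 tested Kbtbd genes and all 4 tested Klhdc genes were among them, with 8 of 9 Fbxw, 7 of 10 Fbxl, 10 of 14 Fbxo, 11 of 18 Klhl and 5 of 7 Btbd genes. The stage of the highest mean was the oocyte for 21 and the 1-cell embryo for 20 of the 68. These are 30.9% and 29.4%, beside 14.2% and 17.5% of all tested probe sets. It was the 2-cell stage for 7 (10.3%, beside 16.1%), the 8-cell stage for 8 (11.8%, beside 29.5%) and the blastocyst for 12 (17.6%, beside 22.7%).

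**Figure D1:**
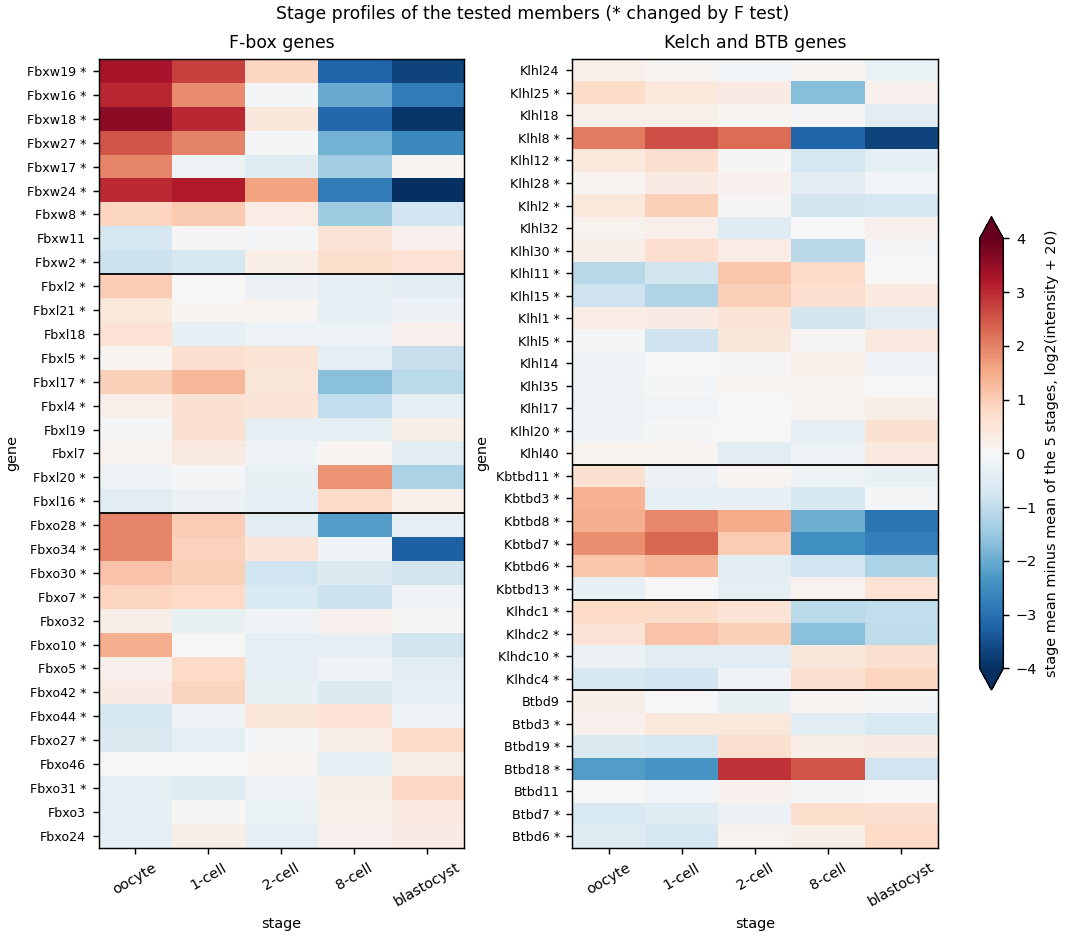
Stage means of the 68 tested genes on the log2(intensity + 20) scale, each minus the gene's mean over the 5 stages (colour; red above, blue below), with genes in rows grouped by family and stages in columns; an asterisk marks the 51 genes that changed by the F test. Most strong rows, among them Fbxw16, Fbxw18, Fbxw19, Fbxw24, Klhl8, Kbtbd7 and Kbtbd8, are red in the first columns and blue at the 8-cell and blastocyst stages, and Btbd18 is red at the 2-cell and 8-cell stages only.

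From oocyte to 1-cell embryo 8 genes fell, 1 rose and 59 did not pass (limma, adjusted p under 0.05). The falls make up 11.8% of the 68, beside 4.26% of all tested probe sets, and the rise 1.47%, beside 2.67%. With quantile normalization 10 fell and none rose. From the 1-cell to the 2-cell stage 15 fell (22.1%, beside 9.34%) and 6 rose (8.82%, beside 12.2%). From the 2-cell to the 8-cell stage 22 fell (32.4%, beside 13.4%) and 6 rose (8.82%, beside 14.1%). From the 8-cell stage to the blastocyst 8 fell (11.8%, beside 6.58%) and 6 rose (8.82%, beside 7.98%). Blastocysts set against oocytes were lower for 30 genes (44.1%, beside 16.1%) and higher for 13 (19.1%, beside 21.6%). Read from the brightest probe set of each named gene, the shares called lower were 6.27%, 13.0%, 17.7%, 7.77% and 21.2% in the same order, and those called higher 3.46%, 13.4%, 15%, 11.1% and 21.9%. The shares of the 68 genes called higher lay under these in each comparison, but near them in some, as at 8.82% beside 11.1% in blastocysts. These differences rest on few genes and were not tested. The median log2 change of the 68 genes was 0.08, -0.19, -0.31, 0.05 and -0.57, beside 0.02, 0.07, 0.10, -0.07 and 0.12 over all tested probe sets. Consecutive comparisons share the arrays of 1 stage and the last shares arrays with the first and the fourth, so they are not independent of each other.

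**Figure D2:**
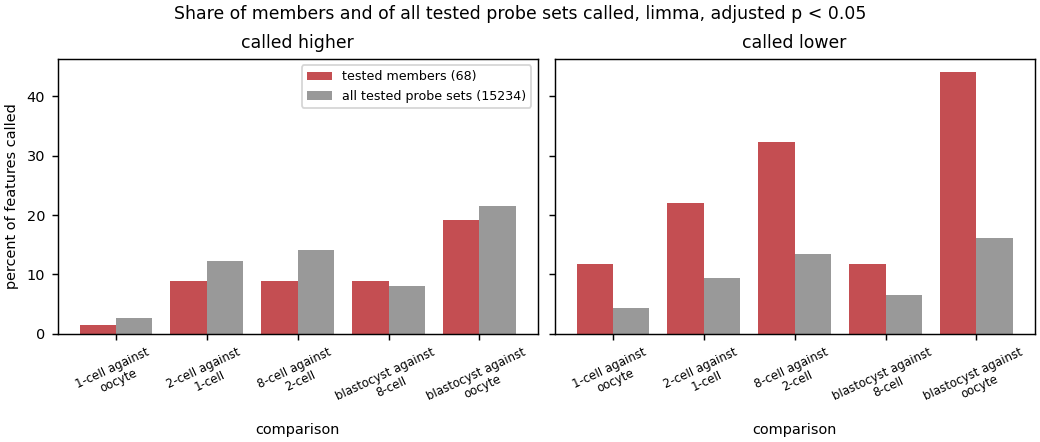
Percent called higher (left) and lower (right) in each of 5 comparisons, for the 68 tested genes (red bars) and for all 15234 tested probe sets (grey bars). The red bar is taller than the grey one for each of the 5 sets of falls, as at 32.4% against 13.4% from the 2-cell to the 8-cell stage, and close to it or shorter for the rises.

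The Fbxw family held the 4 largest net falls from oocyte to blastocyst. Of its 9 tested genes, 7 fell from the 2-cell to the 8-cell stage and 7 were lower in blastocysts than in oocytes. A set of 5 of them, Fbxw16, Fbxw18, Fbxw19, Fbxw24 and Fbxw27, lie in a run of 15 Fbxw genes on mouse chromosome 9 with no other protein-coding gene between the first and the last, in which Fbxw16 and Fbxw19 are next to each other (order from the RefSeq gene table of GRCm38.p6). The 3 genes left out by the rule, Fbxw13, Fbxw21 and Fbxw22, lie in the same run. The functions of these rodent genes are little known. The promoters of 4 of them, without Fbxw27, are shown because the genes had the largest net falls and the sequences are closely alike. Each is the 250 bases before the RefSeq start in GRCm38.p6, 5′ to 3′ on the gene's strand, here minus for all 4, at chr9:109449141-109449390, chr9:109702701-109702950, chr9:109495855-109496104 and chr9:109626060-109626309. Capitals mark the 169 bases that are identical in all 4 in a MAFFT alignment.
Fbxw16: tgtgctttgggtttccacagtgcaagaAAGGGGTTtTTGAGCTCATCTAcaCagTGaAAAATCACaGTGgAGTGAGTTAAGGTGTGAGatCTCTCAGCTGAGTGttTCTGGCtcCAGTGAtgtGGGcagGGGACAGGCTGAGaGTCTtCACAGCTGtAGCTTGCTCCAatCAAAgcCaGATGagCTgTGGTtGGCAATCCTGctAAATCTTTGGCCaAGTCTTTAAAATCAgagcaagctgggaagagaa
Fbxw18: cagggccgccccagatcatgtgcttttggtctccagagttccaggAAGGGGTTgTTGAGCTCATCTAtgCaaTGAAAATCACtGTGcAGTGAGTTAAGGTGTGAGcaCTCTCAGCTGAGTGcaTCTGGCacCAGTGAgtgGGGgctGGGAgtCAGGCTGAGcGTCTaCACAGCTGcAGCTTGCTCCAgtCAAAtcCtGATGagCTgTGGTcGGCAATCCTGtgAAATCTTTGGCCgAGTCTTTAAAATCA
Fbxw19: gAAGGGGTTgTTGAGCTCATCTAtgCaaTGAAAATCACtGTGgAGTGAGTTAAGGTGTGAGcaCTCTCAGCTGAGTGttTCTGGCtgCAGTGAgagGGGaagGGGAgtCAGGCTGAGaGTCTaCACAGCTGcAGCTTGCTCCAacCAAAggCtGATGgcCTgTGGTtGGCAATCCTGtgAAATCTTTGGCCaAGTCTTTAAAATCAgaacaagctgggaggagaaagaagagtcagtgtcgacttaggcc
Fbxw24: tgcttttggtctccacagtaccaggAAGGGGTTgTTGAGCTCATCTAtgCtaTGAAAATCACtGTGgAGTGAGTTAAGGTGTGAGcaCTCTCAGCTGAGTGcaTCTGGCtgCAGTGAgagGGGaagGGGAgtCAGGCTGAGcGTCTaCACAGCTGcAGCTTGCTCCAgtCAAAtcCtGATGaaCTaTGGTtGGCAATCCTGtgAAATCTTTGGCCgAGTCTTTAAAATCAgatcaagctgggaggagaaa
Over the aligned bases the pairs were 85.7% (Fbxw16 and Fbxw18) to 94.3% (Fbxw18 and Fbxw24) identical, with 94.2% for Fbxw19 and Fbxw24. The annotated starts differ, so the shared stretch lies nearer to the start in Fbxw18 than in Fbxw19. Copies as alike as these may also share transcript sequence. The probe sequences were not analysed here, so how much of each signal comes from a neighbouring copy is uncertain.

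Fbxw18 read 15509, 17089, 18591 and 19388 in oocytes, 10950.5, 12789, 13021 and 11319.8 in 1-cell embryos and 2867, 1759, 1799 and 1816 at the 2-cell stage. It then read 154, 143, 204 and 113 in 8-cell embryos and 67.4, 113, 114 and 43.4 in blastocysts. Only the last pair of consecutive stages overlapped. The log2 change was -2.56 (SE 0.21, adjusted p = 1.62e-09) into the 2-cell stage and -3.58 (SE 0.21, adjusted p = 3.15e-12) into the 8-cell stage. The step from oocyte to 1-cell embryo, -0.55, did not pass (adjusted p = 0.147).

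Fbxw19 read 18349.7, 26028, 22355 and 22584 in oocytes and 14734, 16518, 15243 and 14714 at the 1-cell stage, and 5450.3, 3708, 3557 and 3997 at the 2-cell stage. The 8-cell arrays were down to 231, 327, 137 and 267, a log2 change of -4.05 (SE 0.22, adjusted p = 5.13e-13). Every 8-cell array lay below every 2-cell array, and every 2-cell array below every 1-cell array.

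Fbxw24 read 19584, 20280.3, 19459.7 and 26341 in oocytes and 31659.9, 25495, 24881 and 17715 in 1-cell embryos, groups that overlap and whose difference did not pass (log2 change 0.20, adjusted p = 0.84). In 2-cell embryos it read 11345, 7152, 7558 and 7383, in 8-cell embryos 474, 358, 253 and 439 and in blastocysts 183, 15.6, 51.7 and 79.3. From oocyte to blastocyst it changed by -7.97 log2 units (SE 0.33, adjusted p = 1.29e-15), the largest fall of the 68 genes.

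Fbxw16 was already lower at the 1-cell stage, falling from 14499.9, 19788, 19490.1 and 17828 in oocytes to 7577, 8408, 9018 and 7461, with no overlap (log2 change -1.13, SE 0.17, adjusted p = 6.56e-05). It fell at each of the 4 steps, with log2 changes of -1.95, -1.93 and -0.80 in the later ones, and read 365, 298, 259 and 275 in blastocysts. A dimmer probe set of Fbxw16 read 444 ± 106 (SD, n = 4) in oocytes and 176 ± 16.1 in blastocysts, and of the 4 steps it was called lower only into the 2-cell stage. Fbxw27 read 7182 ± 1173 in oocytes, 4944 ± 369 in 1-cell and 1219.7 ± 402 in 2-cell embryos and 194 ± 55.4 in blastocysts, and fell into the 2-cell (-2.05) and 8-cell (-1.84) stages. For all 5 genes 2-cell replicate 1 gave the highest of the 4 values of that stage. Without that array 15 members still fell into the 2-cell stage and 20 into the 8-cell stage.

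For the left-out neighbours the oocyte and 1-cell levels were 5272 ± 1014 and 458 ± 40.9 for Fbxw13, 8867 ± 906 and 2878 ± 696 for Fbxw21, and 17800.2 ± 3639 and 23546 ± 1649.9 for Fbxw22. Fbxw17, which lies outside that run, fell at the first step. It read 534, 628, 686 and 696 in oocytes and 52.1, 165, 148 and 186 at the 1-cell stage, the largest fall of that step (log2 change -2.16, SE 0.34, adjusted p = 0.00013). It was lowest at the 8-cell stage, at 37.5, 54.1, 14.7 and 89.0 (from the 2-cell stage log2 change -0.93, adjusted p = 0.0458, a call lost without any 1 of 12 arrays), and rose again in blastocysts to 148, 91.6, 218 and 229 (log2 change 1.52, SE 0.34, adjusted p = 0.00252). The blastocyst values remained below all oocyte values. Fbxw8, the F-box partner of Cul7, fell from 265 ± 75.8 to 77.0 ± 67.0 between the 2-cell and 8-cell stages (log2 change -1.72, adjusted p = 0.00438), which its dimmer probe set was not called for. Fbxw2 was higher in blastocysts (72.5 ± 41.9) than in oocytes (10.5 ± 2.74; log2 change 1.43, adjusted p = 0.011), from values near the low end of the table, and Fbxw11 passed in none of the 5 comparisons on its brightest probe set. Another, dimmer probe set of Fbxw11 was called higher in blastocysts than in oocytes (log2 change 1.74, adjusted p = 0.011).

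**Figure D3:**
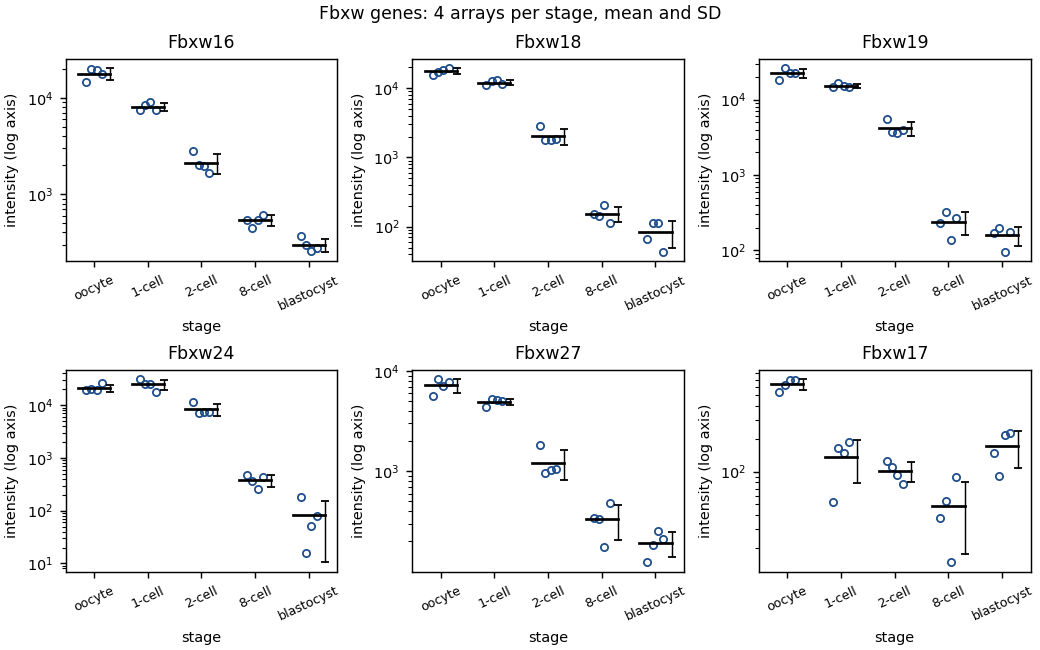
Intensity (log axis) on each of the 20 arrays by stage for Fbxw16, Fbxw18, Fbxw19, Fbxw24 and Fbxw27 of chromosome 9 and for Fbxw17; circles are arrays, black lines stage means and bars 1 SD to either side (n = 4). The chromosome 9 genes step down from the 1-cell stage to the blastocyst, whereas Fbxw17 drops at the 1-cell stage and is higher again in blastocysts.

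Among the leucine-rich repeat genes, Fbxl20 stood out with a peak at the 8-cell stage. It read 5556, 3562, 5514 and 6248 in oocytes, 6159, 5715, 5937 and 4329 in 1-cell embryos and 4772, 4420.5, 4732 and 4825 at the 2-cell stage. The 8-cell arrays read 21099, 21726, 19542 and 17432, all above every array of the other stages, and the blastocyst arrays 3208, 1732, 2390.1 and 2365, all below them. The log2 change was 2.08 (SE 0.20, adjusted p = 1.16e-08) into the 8-cell stage and -3.06 after it (SE 0.20, adjusted p = 8.11e-11). Its probe set is of the s_at type, which can match more than 1 transcript. A second s_at probe set read 1789 ± 109, 9258 ± 607 and 745 ± 132 at the 2-cell, 8-cell and blastocyst stages. Another, of the plain type, read 314 ± 43.2, 516 ± 31.4 and 314 ± 76.3 at the same stages, and both were called in the same directions at both steps. The net fall from oocyte to blastocyst (log2 change -1.10) was not called for the plain probe set (log2 change -0.32, adjusted p = 0.205).

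Fbxl5, the iron-sensing adaptor that removes iron regulatory proteins, read 2297 ± 383 in 2-cell and 1259 ± 465 in 8-cell embryos (log2 change -0.92, adjusted p = 0.00134). Fbxl17, which acts on faulty dimers of BTB proteins, fell from 2359 ± 282 at the 1-cell stage to 1398 ± 645 at the 2-cell stage and 277 ± 46.5 at the 8-cell stage (log2 changes -0.85 and -2.16). Its dimmer probe set was called at neither step. The first fall was lost with quantile normalization and without 2-cell replicate 3 (adjusted p = 0.066). Fbxl4, a mitochondrial F-box protein, fell from 559.8 ± 138 to 185 ± 50.6 at the second of these steps (log2 change -1.50, adjusted p = 3.51e-05). Fbxl2 read 409, 414, 346 and 379.8 in oocytes and fell to 175, 132, 159 and 281 in 1-cell embryos, without overlap (log2 change -1.02, adjusted p = 0.00767). Fbxl16 rose from 126 ± 36.4 to 285 ± 61.0 at the 8-cell stage (log2 change 1.08, adjusted p = 0.003). Fbxl21 was lower in blastocysts (121 ± 20.2) than in oocytes (202 ± 29.7; log2 change -0.66, adjusted p = 0.0183), a call lost without oocyte replicate 3 or blastocyst replicate 1 (adjusted p = 0.0531 to 0.0585). Fbxl7, Fbxl18 and Fbxl19 passed in none of the comparisons on their brightest probe set, whereas a dimmer one of Fbxl7 was called lower at the 8-cell stage (log2 change -1.22, adjusted p = 0.00879).

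Fbxo5, also known as Emi1, inhibits the anaphase-promoting complex, the other large ligase of the cell cycle. It read 4268, 3929, 3883 and 3473 in oocytes, 6906, 6964, 5688 and 4981 in 1-cell embryos and 3504, 3277, 2226 and 2014 at the 2-cell stage. The 1-cell values lay above all others of the 3 stages. Its log2 change into the 2-cell stage was -1.18 (SE 0.19, adjusted p = 3.9e-05). Its log2 change before that was 0.65 (SE 0.19, adjusted p = 0.037), the only rise of the 68 genes at this step. That call was lost with quantile normalization (adjusted p = 0.119), with median centring (0.0541), without a filter (0.0547), and without any 1 of the oocyte or 1-cell arrays other than 1-cell replicate 4 (0.0513 to 0.125).

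Other Fbxo genes fell at different times. Fbxo34 read 4099, 3419, 5955 and 4812 in oocytes and 1667, 2109, 2569 and 2351 at the 1-cell stage (log2 change -1.05, SE 0.28, adjusted p = 0.02). When oocyte replicate 3 (adjusted p = 0.0808) or 4 (0.0576) was left out it no longer passed, nor without 1-cell replicate 1 (0.08) or 2 (0.051). The gene still read 1176, 1178, 629 and 1204 at the 8-cell stage and then fell to 81.4, 53.5, 89.0 and 226 in blastocysts (log2 change -3.12, SE 0.28, adjusted p = 1.58e-08). No other member but Btbd18 fell as far at that last step. Fbxo30 read 1016, 1365, 1634 and 2248 at the 1-cell and 473, 449, 418 and 396 at the 2-cell stage, with no overlap (log2 change -1.75, SE 0.18, adjusted p = 7.04e-08), and every array from the 2-cell stage on read 396 to 604. Its 3 dimmer probe sets were also called lower at the 2-cell stage, but they differed from the brightest at other steps. Calls for a rise at the 8-cell stage were made among them (log2 change 0.91, adjusted p = 0.00166, and log2 change 1.18, adjusted p = 0.000325). So were calls for a fall at the 1-cell stage (log2 change -1.32, adjusted p = 0.000436, and log2 change -0.87, adjusted p = 0.0397). Fbxo10 read 269, 93.1, 344 and 188 in oocytes and 42.4, 77.7, 67.3 and 58.2 at the 1-cell stage, with a wide spread among oocytes (log2 change -1.47, adjusted p = 0.0141). It no longer passed when oocyte replicate 1 (adjusted p = 0.057) or 3 (0.0738) or 1-cell replicate 1 (0.0532) was left out. Fbxo42 fell from 1119 ± 123 to 487 ± 89.1 into the 2-cell stage (log2 change -1.18, adjusted p = 6.18e-05), whereas a dimmer probe set of it rose from 132 ± 22.2 to 214 ± 21.5.

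A pair of Fbxo genes fell and then rose again. Fbxo28 read 4972, 5172, 5330.5 and 3625 in oocytes, 1816, 2478, 2245 and 3615 in 1-cell embryos, 1161, 895, 738 and 894 in 2-cell embryos and 326, 197, 219 and 263 in 8-cell embryos, a fall at each step. In blastocysts it was back at 1256, 972, 922 and 782, above every 8-cell array (log2 change 1.89, SE 0.21, adjusted p = 3.23e-07). A dimmer probe set of Fbxo28 fell at the first 2 steps as well, but its later steps did not pass (276 ± 97.6, 225 ± 20.7 and 359.8 ± 72.3 at the last 3 stages). Fbxo7, which binds the proteasome inhibitor PI31, fell into the 2-cell stage from 1158 ± 199 to 424 ± 68.4 (log2 change -1.40, adjusted p = 5.56e-07) and rose from 353 ± 59.9 to 589 ± 57.4 in blastocysts (log2 change 0.72, adjusted p = 0.00374). Fbxo27, which binds sugar chains of glycoproteins, and Fbxo31, which takes part in cyclin D1 removal, were called on their brightest probe set only in the comparison of blastocysts with oocytes, at 1.34 and 1.21 log2 units. For Fbxo27 a dimmer probe set was called there too, and also at the 8-cell stage, from 31.7 ± 27.7 to 106 ± 32.8 (log2 change 1.39, adjusted p = 0.00582). Fbxo44 changed by the F test (adjusted p = 0.0178) but in none of the 5 comparisons. Fbxo3, Fbxo24, Fbxo32 and Fbxo46 passed none of these tests.

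Klhl8 had the sharpest fall of all members between consecutive stages. It read 8378, 8113, 9211 and 8868 in oocytes, 12814, 13327, 12279.6 and 11249 in 1-cell embryos and 11519, 9882, 8559.7 and 9259.5 at the 2-cell stage. The 8-cell arrays read 117, 256, 137 and 393 and the blastocyst arrays 131, 190.3, 176 and 79.6. The log2 change from 2-cell to 8-cell embryos was -5.46 (SE 0.26, adjusted p = 6.4e-14), whereas neither earlier step passed. A second probe set of Klhl8 was called lower at that step as well, and already from the 1-cell (4291 ± 1408) to the 2-cell stage (2541 ± 366).

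Kbtbd8, a Cul3 adaptor known from neural crest formation, fell most at the same step. The oocyte arrays read 7713, 9713, 7322 and 7442, the 1-cell arrays 11659.8, 13804, 10845 and 8770.1 and the 2-cell arrays 10391, 9419, 6314 and 6845. The 8-cell arrays read 618, 739, 731 and 880.2, all below every earlier array (log2 change -3.42, SE 0.20, adjusted p = 2.82e-12), and blastocysts read less again, 525, 297, 386 and 289 (log2 change -0.98, adjusted p = 0.00122). A dimmer probe set of Kbtbd8 was called higher at the 1-cell stage (1798 ± 429.7) than in oocytes (523 ± 46.1), and lower at the 8-cell stage.

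Kbtbd6 and Kbtbd7 are neighbours on chromosome 14 with no protein-coding gene between them, and their proteins act together as Cul3 adaptors for the Rac activator TIAM1. Kbtbd7 read 12356, 10785, 9396 and 7611 in 1-cell embryos, 5027, 3926, 2902 and 4565 in 2-cell embryos and 419.7, 327, 267 and 398 in 8-cell embryos, with no overlap between them (log2 change -1.29, adjusted p = 4.36e-05, and log2 change -3.46, adjusted p = 3.8e-12). Kbtbd6 read 411, 333, 408 and 348 at the 1-cell stage and 88.0, 86.3, 93.6 and 127 at the 2-cell stage (log2 change -1.74, SE 0.23, adjusted p = 2.47e-06), and its later log2 changes, -0.34 and -0.52, did not pass. The probe set of Kbtbd7 is of the s_at type. A plain probe set of Kbtbd7 was called lower at the same pair of steps, from 2330.3 ± 325 to 776 ± 171 and 54.9 ± 15.2. Another plain probe set, much dimmer, was called at neither step (log2 change -0.95, adjusted p = 0.0618, and log2 change 0.91, adjusted p = 0.0619). It read 92.25 ± 36.1, 38.1 ± 17.2 and 95.4 ± 47.2 at these stages.

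Kbtbd3 fell early and once: its 4 oocyte arrays read 512, 403, 436 and 489.7 and its 1-cell arrays 114, 123, 101 and 147 (log2 change -1.77, SE 0.21, adjusted p = 3.1e-06). Kbtbd11 fell at the same step, from 549 ± 105 to 295 ± 44.0 (log2 change -0.85, adjusted p = 0.00708). The 3 other tested probe sets of Kbtbd11 were not called at this step (log2 changes -0.59, 0.0038 and 0.023). Kbtbd13, a muscle gene of the family read here by an x_at probe set that can cross-hybridize, was called higher at the 8-cell stage (log2 change 0.52, adjusted p = 0.009) and in blastocysts (log2 change 0.43, adjusted p = 0.0455). The first call was not made for its plain probe set (log2 change 0.27, adjusted p = 0.639), and the second was lost under 16 of 27 other settings that kept this probe set. The plain probe set rose at that second step (log2 change 2.26, adjusted p = 6.5e-05), from 69.4 ± 32.8 to 407 ± 123. The falls of Fbxw17, Kbtbd3, Fbxo10, Fbxl2, Fbxo34, Fbxo28, Fbxw16 and Kbtbd11 at the 1-cell stage go together with the high 18S signal of those arrays, whose part was not tested.

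Klhl genes other than Klhl8 fell by less. Klhl12, a Cul3 adaptor of the COPII coat, fell in 2 steps from 2161 ± 207 at the 1-cell stage through 1421 ± 151 to 853 ± 209 at the 8-cell stage (log2 changes -0.60 and -0.75, the first of which was lost with quantile normalization). Klhl2, an adaptor for WNK kinases, did so from 1281 ± 492 through 629 ± 117 to 357 ± 41.0 (log2 changes -0.92 and -0.77), with overlap at the first step. Neither call of Klhl2 is firm: the first was lost without any 1 of 5 arrays (adjusted p = 0.0557 to 0.102) and the second without any 1 of 15 (0.053 to 0.133). Klhl28 fell from 819 ± 139.9 to 512 ± 52.8 (log2 change -0.65, adjusted p = 0.00392), Klhl1 from 239 ± 25.7 to 89.2 ± 25.6 (log2 change -1.27, adjusted p = 6.1e-05) and Klhl30 from 54.2 ± 4.95 to 8.43 ± 4.42 (log2 change -1.39, adjusted p = 0.0171). For Klhl28 2 of 3 dimmer probe sets were called lower at the 2-cell stage, and none of them at the 8-cell stage. Klhl25, an adaptor for the translation repressor 4E-BP1, dipped at the 8-cell stage only. It read 267, 231, 182 and 256 at the 2-cell stage, 35.5, 34.2, 46.4 and 51.0 at the 8-cell stage and 233, 163, 218 and 219.6 in blastocysts, and the 8-cell arrays lay below all others (log2 change -2.04, adjusted p = 4.29e-06, and log2 change 1.88, adjusted p = 3.1e-05). Klhl20 rose in blastocysts from 167 ± 65.1 to 339 ± 81.2 (log2 change 0.98, adjusted p = 0.00817). Klhl14, Klhl17, Klhl18, Klhl24, Klhl32, Klhl35 and Klhl40 passed neither in a comparison nor by the F test on their brightest probe set. For Klhl32 a dimmer probe set fell at both the 2-cell and 8-cell stages (log2 changes -0.78 and -0.83).

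Klhdc1 and Klhdc2 are neighbours on chromosome 12, again with no protein-coding gene between them. Klhdc2 is the Cul2 receptor for proteins that end in a pair of glycines. Klhdc2 read 1404, 1058, 1161 and 1709 at the 2-cell stage and 313, 223, 209.5 and 95.4 at the 8-cell stage, with no overlap (log2 change -2.63, SE 0.28, adjusted p = 5.59e-08). Klhdc1 read 840.5, 768, 712 and 777 and 284, 279, 146 and 272 at the same stages (log2 change -1.62, SE 0.21, adjusted p = 1.19e-06). Neither changed by the test before that step or after it. Klhdc10 and Klhdc4 went up at the same step, from 668 ± 40.3 to 1277 ± 117 (log2 change 0.91, adjusted p = 2.79e-05) and from 133 ± 34.1 to 251 ± 75.2 (log2 change 0.80, adjusted p = 0.0217). The call for Klhdc4 was lost without any 1 of 2-cell replicates 2 and 4 and 8-cell replicates 1 and 2 (adjusted p = 0.0516 to 0.078). The probe sets of Klhdc10 disagree: its 2 dimmer ones were lower in blastocysts (189.7 ± 55.2 and 473 ± 119.9) than in oocytes (494 ± 142 and 673 ± 67.9), whereas the brightest was higher (log2 change 0.90).

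**Figure D4:**
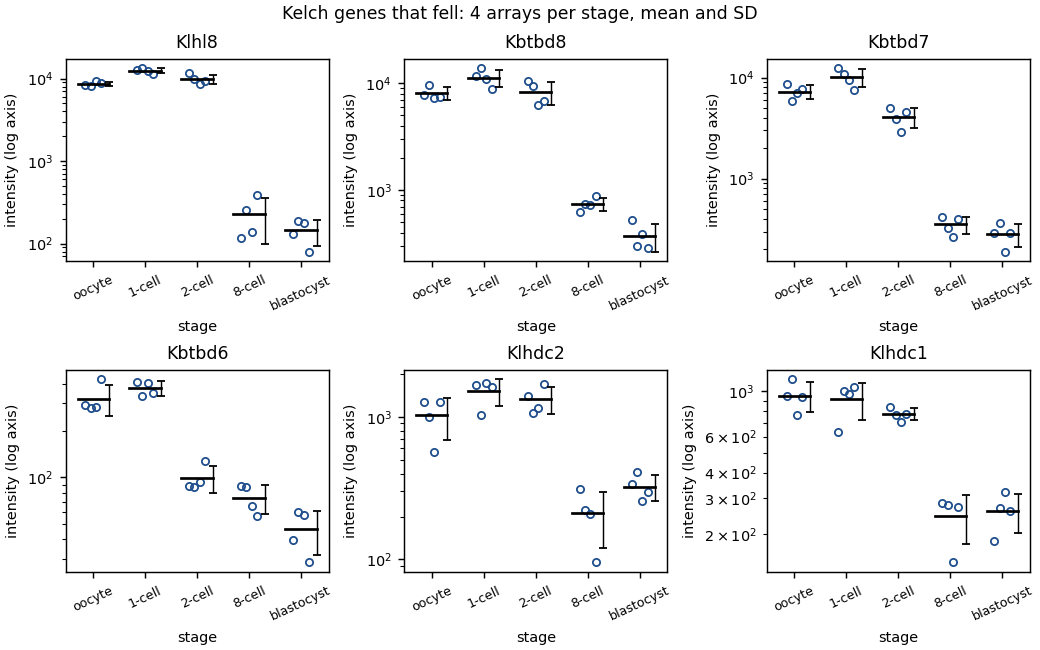
Intensity (log axis) on each of the 20 arrays by stage for Klhl8, Kbtbd8, the neighbours Kbtbd7 and Kbtbd6, and the neighbours Klhdc2 and Klhdc1; circles are arrays, black lines stage means and bars 1 SD to either side (n = 4). Klhl8, Kbtbd8, Klhdc2 and Klhdc1 drop between the 2-cell and 8-cell stages, and Kbtbd6 drops one step earlier.

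From the 1-cell to the 2-cell stage 6 genes rose: Btbd18, Btbd19, Btbd6, Klhl5, Klhl11 and Klhl15. They are 8.82% of the 68 tested, beside 12.2% of all tested probe sets. The mouse embryo is known to switch on its own genome at that stage, but its part in these rises was not tested. At this step 3 of 7 tested Btbd genes rose (42.9%, beside 12.2% of all tested probe sets) and none fell (beside 9.34%). So few genes do not show a trait of the family. Btbd18, which in testis is needed for transcription of piRNA precursors, read 38.9, 56.8, 53.2 and 48.4 in oocytes and 19.8, 13.0, 77.7 and 104 at the 1-cell stage. It read 1647, 2057, 3112 and 3252 at the 2-cell stage and 1486, 1815, 1786 and 2330.0 at the 8-cell stage, then 203, 172, 116 and 192 in blastocysts. Every 2-cell and 8-cell array lay above every array of the other stages. The log2 change was 5.27 (SE 0.32, adjusted p = 5.15e-12), the largest rise of any member, and -3.30 into the blastocyst (SE 0.32, adjusted p = 4.74e-08).

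Klhl11 read 508, 492, 399 and 411 in 1-cell embryos, 1431, 1429, 1638 and 2226 in 2-cell embryos and 1222, 1294, 1099 and 1658 in 8-cell embryos. It rose by 1.83 log2 units (SE 0.18, adjusted p = 1.8e-08) and fell to 850.3, 684, 734 and 744 in blastocysts (log2 change -0.78, adjusted p = 0.00287). Klhl15, a Cul3 adaptor for a regulatory subunit of the phosphatase PP2A, read 106, 66.5, 56.3 and 87.5 at the 1-cell and 386, 494, 439 and 338 at the 2-cell stage, with no overlap (log2 change 2.15, SE 0.22, adjusted p = 5.63e-08), and was still 348, 262, 242 and 236 in blastocysts. Dimmer probe sets of these genes did not show the rise: that of Klhl11 read 67.8 ± 47.4 and 61.6 ± 33.1 at the 1-cell and 2-cell stages, and that of Klhl15 194 ± 7.12 and 168 ± 20.3. Btbd19 went from 218, 168, 225 and 270.4 to 694, 486, 541 and 609 (log2 change 1.33, adjusted p = 4.2e-06), and a dimmer probe set of it was called higher as well. Btbd6 went from 85.7 ± 13.6 to 165 ± 15.9 (log2 change 0.81, adjusted p = 0.0117) and Klhl5 from 30.9 ± 19.4 to 99.0 ± 21.9 (log2 change 1.29, adjusted p = 0.01).

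No member had a called peak or trough at the 2-cell stage on its brightest probe set, beside 1.44% and 0.565% of all tested probe sets. The test took the larger of the one-sided limma p-values of both steps. By the same test a dimmer probe set of Fbxo30 had a called trough (adjusted p = 0.0267). It read 461 ± 109, 130 ± 17.6 and 264 ± 40.9 at the 1-cell, 2-cell and 8-cell stages. At an unadjusted p under 0.05 the brightest probe sets gave 2 peaks, Klhl11 and Btbd19, and 1 trough, Kbtbd13. Over the same step the summed signal of 6 measured cumulus and granulosa markers of 17 listed went from 1020 to 1370 on the 1-cell arrays to 2721 to 3379 on the 2-cell arrays. The x_at probe set of Amhr2 alone went from 167 ± 37.6 to 2053 ± 284. The other 5 markers summed to 901 to 1188 and then to 792 to 977, but did not move alike. Foxl2 went from 756 ± 168 to 579 ± 57.9 and Cyp11a1 from 161 ± 39.4 to 73.9 ± 38.0. The means of Inhba (43.3 ± 18.5 to 86.65 ± 44.9), Ptx3 (32.65 ± 22.2 to 44.8 ± 26.2) and Cd44 (84.45 ± 27.0 to 118 ± 21.9) went up. Whether cumulus or granulosa cells had a part in these rises was not tested.

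The promoters of Btbd18, Klhl11 and Klhl15 are shown because these 3 genes had the largest rises at the 2-cell stage. They are the 250 bases before the RefSeq start in GRCm38.p6, 5′ to 3′ on the gene's strand: chr2:84658829-84659078 (plus strand), chr11:100472783-100473032 (minus) and chrX:94234680-94234929 (plus). Capitals mark matches, on either strand, to the CCAAT box (CCAAT) or the GC box (GGGCGG).
Btbd18: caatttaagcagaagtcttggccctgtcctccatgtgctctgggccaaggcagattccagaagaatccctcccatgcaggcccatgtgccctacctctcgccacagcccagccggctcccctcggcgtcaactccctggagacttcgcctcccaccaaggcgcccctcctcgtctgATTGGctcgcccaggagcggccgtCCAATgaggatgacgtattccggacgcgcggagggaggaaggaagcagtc
Klhl11: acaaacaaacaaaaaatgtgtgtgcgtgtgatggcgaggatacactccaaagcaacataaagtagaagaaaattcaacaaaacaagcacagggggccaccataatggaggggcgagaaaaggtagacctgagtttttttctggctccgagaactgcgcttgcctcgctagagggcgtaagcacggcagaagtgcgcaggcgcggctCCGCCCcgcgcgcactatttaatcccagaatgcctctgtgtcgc
Klhl15: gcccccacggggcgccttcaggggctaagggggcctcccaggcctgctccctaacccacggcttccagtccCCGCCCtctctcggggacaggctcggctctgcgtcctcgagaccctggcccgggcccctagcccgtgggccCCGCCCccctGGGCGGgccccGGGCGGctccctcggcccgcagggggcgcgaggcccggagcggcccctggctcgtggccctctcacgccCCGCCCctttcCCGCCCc
Btbd18 has 2 CCAAT boxes in opposite orientation and no GC box, Klhl11 has 1 GC box, and Klhl15 has 6 GC boxes and no CCAAT box. A TATA box (TATAAA) and an E-box (CACGTG) were sought as well and found in none of the 3. RefSeq promoters were found for 70 of the 84 genes, 91 promoters in all. Of these 53.8% hold a GC box, beside 32.7% of all 32851 promoters of the same length. The shares were 26.4% beside 33.8% for the CCAAT box, 5.49% beside 12.4% for the TATA box and 8.79% beside 6.02% for the E-box. The member promoters hold a median of 13 CpG pairs, beside 6 in all promoters, and the 4 Fbxw promoters above hold 0 to 4. A match is a description of the letters and does not show a bound factor.

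**Figure D5:**
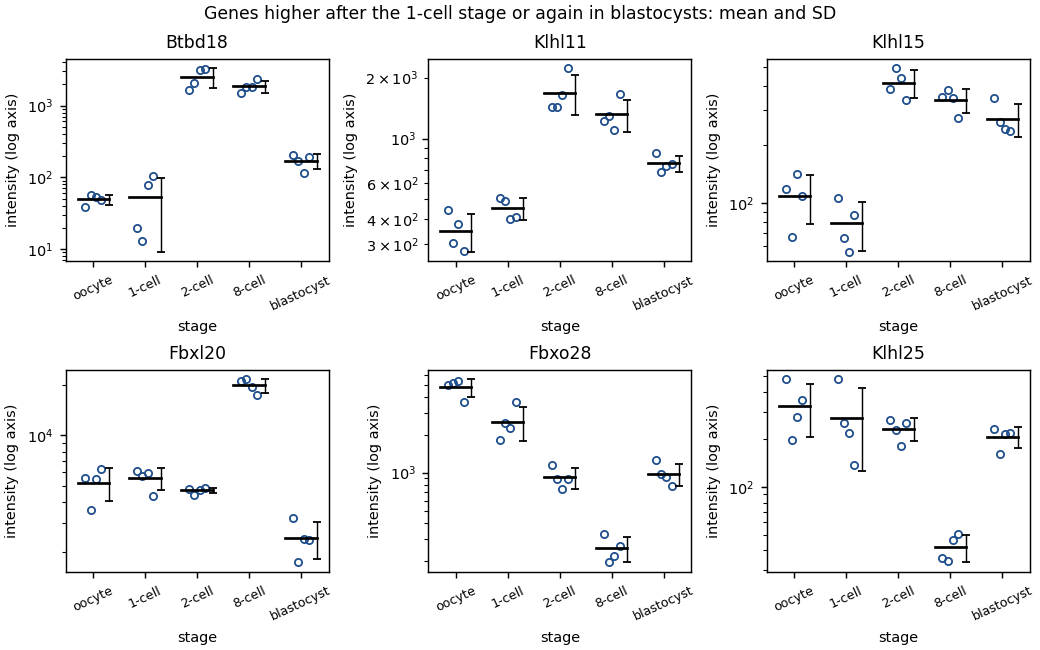
Intensity (log axis) on each of the 20 arrays by stage for Btbd18, Klhl11 and Klhl15, which rose at the 2-cell stage, Fbxl20, which was high at the 8-cell stage, and Fbxo28 and Klhl25, which were lowest at the 8-cell stage; circles are arrays, black lines stage means and bars 1 SD to either side (n = 4). The 2-cell and 8-cell arrays of Btbd18 read 1487 or more and all others at most 203.

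At the 8-cell stage Btbd7, known from the branching of epithelia, rose from 447, 359, 401 and 536 to 669.9, 803, 885 and 1014 (log2 change 0.92, SE 0.24, adjusted p = 0.0058), and the blastocyst arrays, at 912, 786, 798 and 704, stayed in that range. The 2 other tested probe sets of Btbd7 were not called at this step (log2 change 0.26, adjusted p = 0.418, and log2 change 0.08, adjusted p = 0.812), and the first of them rose at the 2-cell stage instead (log2 change 0.66, adjusted p = 0.0288). With Fbxl20, Fbxl16, Klhdc10, Klhdc4 and Kbtbd13, this makes the 6 rises of that step. Blastocysts exceeded oocytes most for Klhdc4 (1.5 log2 units), Btbd18 (1.44), Fbxw2 (1.43, with overlap between the stages), Fbxo27 (1.34) and Btbd6 (1.31). Oocytes exceeded blastocysts most for Fbxw24 (-7.97), Fbxw18 (-7.47), Fbxw19 (-6.98) and Fbxw16 (-5.81).

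Of the members with a mean of at least 8 log2 units, Btbd9, Klhl24 and Klhl28 had the largest p by the F test. Of the Btbd genes not yet described, Btbd3 changed by the F test (adjusted p = 0.0232) but in no comparison, and Btbd11 passed neither, both on the brightest probe set. Both had a dimmer probe set that was called higher in blastocysts than in oocytes (log2 change 1.78, adjusted p = 0.00173 for Btbd3, and log2 change 0.98, adjusted p = 0.0474 for Btbd11). Btbd9 ranged over stage means of 304 ± 133 to 411 ± 63.0 and did not pass (F test adjusted p = 0.481), with a 95% interval of -0.81 to 0.29 log2 units for blastocyst minus oocyte. A dimmer probe set of Btbd9 did change, from 586 ± 112 at the 1-cell stage to 135 ± 40.8 at the 8-cell stage. Klhl24 had an interval of -0.87 to -0.08 and the difference missed the threshold (adjusted p = 0.0531). It was called lower with median centring (adjusted p = 0.0125) and with quantile normalization (0.036), whereas a dimmer probe set was called higher, from 87.8 ± 59.6 to 326 ± 122 (log2 change 1.80, adjusted p = 0.00262). These values do not show that the level of Klhl24 is constant. Klhl28 did change by the F test (adjusted p = 0.00219).

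More than 1 probe set was present for 33 of the 84 genes. Counted over the 5 comparisons, there were 68 pairs of a called brightest probe set and another tested probe set of the same gene. The other was called the same way in 29, the opposite way in 3 and not at all in 36. The opposite calls were those of Fbxo42 and of both dimmer probe sets of Klhdc10 described above. The 16 genes not tested were Fbxl12os, Fbxl13, Fbxo6, Fbxo41, Fbxw10, Kbtbd12, Klhdc8a, Klhdc8b, Klhl4, Klhl6, Klhl21, Klhl22, Klhl23, Klhl29, Klhl33 and Klhl41. Their highest single value was 174.

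The adaptors work with a cullin core that the names above do not cover. Of a list of 64 symbols for cullins, their cofactors and adaptors with other names, older names included, 30 were measured and 26 tested. Each was read from its brightest probe set alone, and any other probe sets of these genes were not looked at. From the 2-cell to the 8-cell stage 8 rose, 6 fell and 12 did not pass, with a median log2 change of 0.24 beside 0.10 over all tested probe sets, of which 14.1% rose and 13.4% fell. At the 1-cell stage 1 rose and 2 fell, beside 2.67% and 4.26% of all tested probe sets. At the 2-cell stage 2 rose and 6 fell (beside 12.2% and 9.34%), and in blastocysts 4 rose and 4 fell (beside 7.98% and 6.58%). Blastocysts set against oocytes were higher for 8 and lower for 7 of the 26 (beside 21.6% and 16.1%). The cullin Cul5 read 923, 1024, 762 and 834 at the 2-cell and 5183, 6308, 4187 and 2725 at the 8-cell stage (log2 change 2.29, SE 0.30, adjusted p = 1.97e-06). Arih2, a RING-between-RING ligase that works with Cul5, read 57.8, 665, 1044 and 520.0 and 1962, 2400.5, 2129 and 2582 (log2 change 2.44, SE 0.50, adjusted p = 0.000511). Cul3, the partner of the BTB-kelch proteins, rose from 55.9 ± 52.0 to 399 ± 28.7 (log2 change 2.72, adjusted p = 5.05e-06), and Cand1, which exchanges F-box proteins on Cul1, from 201 ± 49.0 to 1384 ± 412 (log2 change 2.66, adjusted p = 6.58e-10). The 2-cell arrays of Cul3 read 9.9, 127, 60.2 and 26.1, so its rise starts from values partly near the low end of the table. Into the 8-cell stage 7 of 18 tested Klhl genes fell and 0 rose. Of 6 tested Kbtbd genes 2 fell and 1 rose, too few to set beside the shares of all tested probe sets. Whether these falls are linked to the rise of Cul3 was not tested. Senp8, the protease that processes the cullin modifier NEDD8, fell at each of the first 3 steps, from 3009 ± 375 in oocytes to 97.5 ± 44.2 at the 8-cell stage. Senp8 then rose in blastocysts (log2 change 1.04, adjusted p = 0.0129), whereas Cul5 (-2.18, adjusted p = 1.07e-05) and Cand1 (-0.91, 0.00422) fell there. Cul5 had also risen at the 1-cell stage (1.03, adjusted p = 0.0383) and fallen at the 2-cell stage (-1.06, 0.0123). Its difference between blastocysts and oocytes did not pass (0.08, adjusted p = 0.864). The ubiquitin-conjugating enzyme Ube2g1 fell from 12828 ± 1502 in oocytes to 5629 ± 1512 at the 1-cell stage (log2 change -1.22, adjusted p = 0.00224).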

How the data were processed

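Intensities, linear and 1 per probe set, were used as deposited by the authors. Per the labels, the RNA had 2 rounds of in vitro transcription; the sources used here name no scanner software, probe summarization or scaling target. In the table itself, the mean after trimming 2% at each end is 150.02 to 150.04 on every array. Stages and replicate numbers come from the titles. Probe sets were named through the platform annotation, with symbols updated by Entrez identifier against the RefSeq gene table of GRCm38.p6 (14486 of 14661 probe sets with 1 symbol found). The 64 control probe sets were left out.

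Stage means of log2(intensity + 20) were fitted over 20 arrays in limma 3.58.1 (R 4.3.3), with 15 residual degrees of freedom and an intensity trend. Benjamini-Hochberg adjustment ran over all 15234 tested probe sets within a comparison. The fit was tested on simulated data. Other settings tried were a pseudocount of 80, no filter, a stricter filter, quantile normalization, median centring, a replicate block, array weights, no x_at and s_at probe sets, and each array left out. Promoter windows are RefSeq's. Full values are given for up to 6 of the largest called rises and falls per step (4 for blastocyst against oocyte) whose arrays do not overlap; other called members are named with means, and the 5 with the highest mean and 3 with the largest F test p are named too. The members, lists and rules were chosen with earlier results of these data known. The number of arrays limits the precision.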

Additional observations from a re-analysis of the deposited data

Results flagged for a closer look

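Dixon's ratio on the log2 scale was used to look for single arrays far from the other 3 in 180 groups of 4 arrays for 36 named members. Chance flags about 1 in 20 such groups, and 10 were found. Of these, 3 were 2-cell replicate 1, which read above the others for chromosome 9 Fbxw genes: 2867 for Fbxw18 (others 1759 to 1816), 11345 for Fbxw24 (others 7153 to 7558) and 1820.0 for Fbxw27 (others 969 to 1050.1). In the oocytes, replicate 4 read 26341 for Fbxw24 (others 19460 to 20280) and 432 for Kbtbd6 (others 281 to 293). Among 8-cell arrays, replicate 3 read 629 for Fbxo34 (others 1176 to 1204), and replicate 4 read 1103 for Klhdc10 (others 1330.1 to 1340.0) and 22.6 for Klhl5 (others 83.3 to 101). At the 2-cell stage replicate 4 read 108 for Fbxl2 (others 168 to 173) and replicate 3 read 158 for Klhl20 (others 237 to 240.3).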

How the results depend on the processing

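The counts of members called in each comparison stayed within 1.5 times their value under 8 other settings, with 1 exception: the single rise at the 1-cell stage, Fbxo5, was 0 without a filter, with quantile normalization and with median centring. Leaving out 1 array at a time gave 0 to 2 rises and 6 to 9 falls at the 1-cell stage, 6 rises and 14 to 15 falls at the 2-cell stage, 5 to 6 and 20 to 22 at the 8-cell stage, 5 to 8 and 7 to 9 in blastocysts, 12 to 15 and 28 to 32 for blastocyst against oocyte, and 49 to 52 members changed by the F test. Of 115 called pairs of a member and a comparison, 97 kept their call under every setting that gave them a value (10 of the 115 had none under 1 setting), 18 lost it under 1 or more and 14 lost it without 1 array. Median centring moved the arrays by the difference of their medians, 7.22 log2 units in oocytes and 1-cell embryos against 7.35 to 7.42 later. Klhl28 turned from -0.17 to 0.046 log2 units for blastocyst against oocyte with quantile normalization, neither called. Replicate numbers did not pair the arrays: deviations of same-numbered arrays correlated at -0.062 to 0.063, and the replicate block changed the rises in blastocysts from 6 to 5, by losing Kbtbd13.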
